A study of Mus musculus with 8 samples.

Results

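The 40 genes described here encode the machinery and the cargo receptors of autophagy in CT26 cells, a mouse colon carcinoma line grown in culture. They were chosen by name, from the core ATG genes, their kinase complexes and the best known receptors, with earlier results of these data known. All 40 were found by symbol among the 26642 rows of the count table. Messenger RNA was sequenced from 4 libraries of CT26 cells labelled Tead1/4 knockout (KO) and from 4 libraries of unedited CT26 cells (WT). The TEAD proteins bind DNA and carry the coactivators YAP and TAZ, the output of the Hippo pathway, and the series asks how the transcript profile differs between the genotypes. No treatment is named for either genotype. Whether the KO cells are 1 clone or a pool, how they were edited, and whether replicates came from separate cultures is not given in the labels. The p-values therefore reflect library-to-library spread, which may be technical.

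Macroautophagy wraps cytoplasm in a double membrane that then fuses with the lysosome. The ULK1 kinase complex starts the process and a phosphatidylinositol 3-kinase complex marks the membrane, while ATG9 vesicles, ATG2 lipid transfer proteins and WIPI proteins enlarge it. A ubiquitin-like conjugation system attaches the ATG8 proteins (the LC3 and GABARAP families) to the membrane lipid phosphatidylethanolamine, and receptors that bind both an ATG8 protein and a cargo bring the cargo in. Because ATG8 proteins and receptors such as p62 are themselves degraded with the cargo, mRNA levels measure neither protein levels nor the flow through the pathway.

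The libraries held 29679405 to 32774905 counts. Levels are given as CPM, counts scaled to the library's size with TMM factors, in replicate order 1 to 4. Fold changes are in log2 units, positive where KO is higher, each with a standard error (SE). A gene is called when its Benjamini-Hochberg adjusted p from edgeR's quasi-likelihood test, taken over all 13265 rows tested, is under 0.05. Tead1 averaged 67.5 ± 12.4 CPM in KO and 206 ± 80.8 CPM in WT (SD, n = 4 each), and Tead4 averaged 29.3 ± 6.08 CPM in KO and 47.8 ± 12.3 CPM in WT, so both targeted mRNAs were lower but still present (log2 fold changes -1.61 and -0.71, edgeR adjusted p = 0.00217 and 0.0261). Of 12 colon epithelial markers, Krt18 and Krt20 were well detected (76.3 and 47.4 CPM in KO, 38.5 and 34.6 CPM in WT), Epcam had no count in any library, and Cdh1, Cdx1, Cdx2 and Vil1 averaged at most 0.128 CPM in either genotype. Summed over all 12 the markers reached 110 to 145 CPM in KO and 56.9 to 107 CPM in WT. Krt18 and Lgals4 (6.02 CPM in KO, 0.225 CPM in WT) were called higher among 4 tested (50%, with 20.9% of all rows tested). The 8 fibroblast markers summed to 1745 to 2341 CPM in KO and 1409 to 2126 CPM in WT, a sum carried by Col1a2 (1519 CPM in KO, 1418 CPM in WT, not called). Yet 4 of the 6 tested fibroblast markers were called higher (66.7%, with 20.9% of all rows), with edgeR adjusted p between 0.000803 and 0.026. They included Dcn (2.37 to 14.4 CPM in KO, 0 to 0.142 CPM in WT) and Col3a1 (143 CPM in KO, 31.3 CPM in WT). Also called were Pdgfra (35.95 CPM in KO, 8.01 CPM in WT) and Pdgfrb (84.9 CPM in KO, 39.7 CPM in WT). For 8 leukocyte markers the sums were 9.93 to 16.4 CPM in KO and 1.55 to 3.75 CPM in WT. The 2 tested, Cd68 (11.2 CPM in KO, 2.14 CPM in WT) and Lyz2 (2.39 CPM in KO, 0.254 CPM in WT), were called higher (100%, with 20.9% of all rows). Cd3e and Adgre1 were at 0 in every library, and the defining marker Ptprc at 0.0152 CPM in KO and 0.0253 CPM in WT. The WT libraries held 0 to 4 counts of Dcn, 3 to 11 of Lgals4 and 0 to 11 of Lyz2. Those genes were tested only through their KO counts. The 5 endothelial markers summed to at most 0.52 CPM in any library. Some of these markers therefore moved with genotype alongside the autophagy genes, while others, such as Krt20 and Col1a2, were not called. The part of the markers in the results was not tested.

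In edgeR's test, the members that passed the threshold were all higher in KO. Of the 40 members, 39 passed the filter on low counts, and 17 of these were called higher in KO (43.6%, where 20.9% of all rows tested were called higher) while none was called lower (20.6% of all rows were). The members were chosen with earlier results of these data known, so these shares describe a chosen set and are not a test of it. The 0 decreases stand beside 3 members with a negative fold change at an unadjusted p under 0.05. Both DESeq2 and edgeR without WT replicate 3 called 2 decreases (beside 23.7% and 21.1% of all rows called lower). Those of DESeq2 were Atg9a and Atg16l1 (fold changes -0.35 and -0.33, adjusted p = 0.0363 and 0.0362). The share called in either direction was close to that of the whole table (43.6% of members and 41.6% of all rows). Calls over all rows were 50.4% higher with TMM scaling and 64.6% higher with upper-quartile scaling, which moved the median of all rows to 0.20 and gave 20 members called higher and 0 lower beside 27% of all rows called higher. A rise of at least 2-fold was found for 6 members (15.4%, with 13.8% of all rows) and a fall of that size for none (8.56% of all rows). The median log2 fold change of the 39 was 0.36, beside 0.02 for all rows tested. In bulk libraries, a change in the share of cells that express a gene and a change in RNA per cell cannot be told apart.

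By role, all 5 ATG8 genes and 4 of 6 tested cargo receptor genes were called higher. So were 2 of 5 genes of the ULK1 complex, 2 of 6 of the phosphatidylinositol 3-kinase complexes, 2 of 6 for ATG9, ATG2 and WIPI proteins, 1 of 7 for conjugation and 1 of 4 for the ATG4 proteases. The median log2 fold change was 0.96 for the ATG8 genes, 0.72 for the receptors, 0.36 for the ULK1 complex, 0.34 for conjugation, 0.26 for the 3-kinase complexes, 0.00 for the ATG4 proteases and -0.04 for the ATG9, ATG2 and WIPI genes. Leaving aside the ATG8 genes and the receptors, 8 of 28 members were called higher (28.6%, beside 20.9% of all rows). Differences between the roles were not tested.

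**Figure D1:**
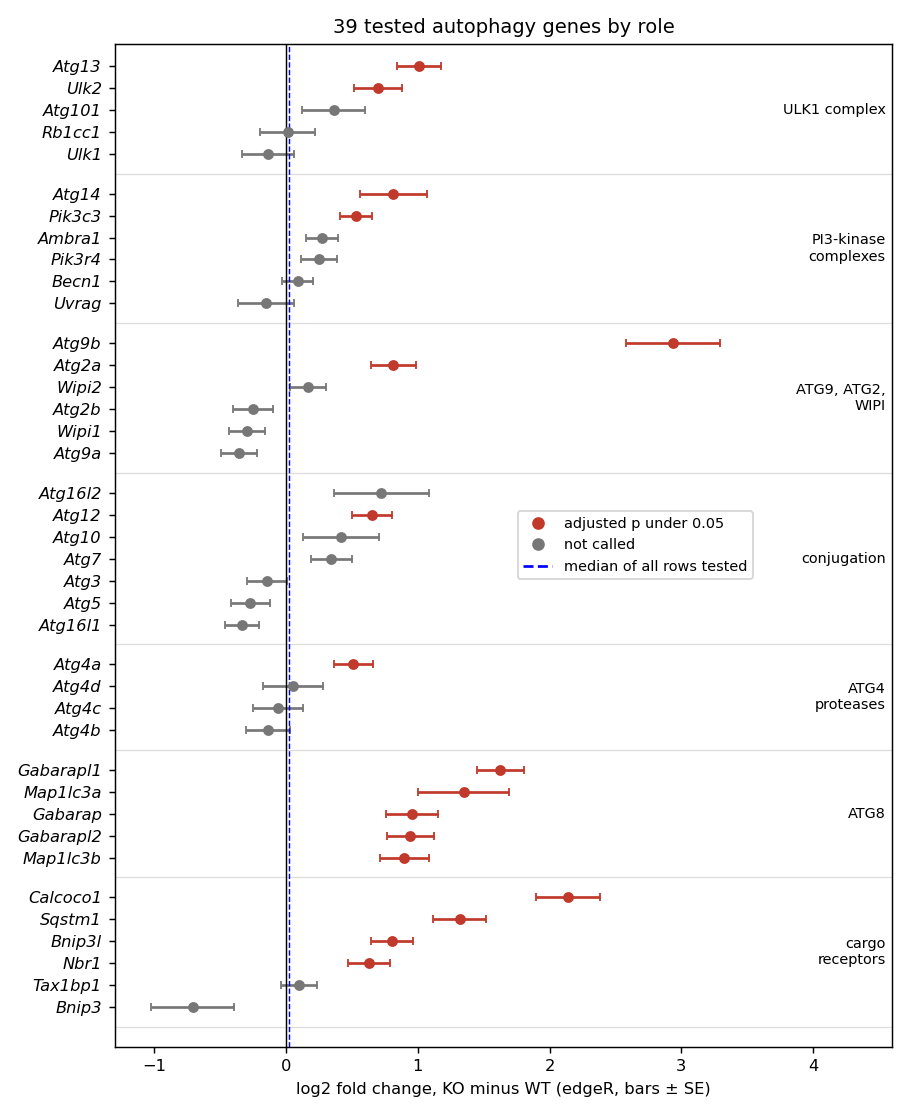
Log2 fold change, KO minus WT, of the 39 tested autophagy genes grouped by role, with bars of ± 1 SE from edgeR (4 KO and 4 WT libraries). Red points are called at an adjusted p under 0.05, grey points are not, and the dashed line is the median of all 13265 rows tested (0.02). All 5 ATG8 genes lie between 0.90 and 1.63, and Atg9b stands farthest right at 2.94.

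The ATG8 genes encode the small ubiquitin-like proteins that coat the growing membrane and hold the receptors. Gabarapl1 had the largest increase of the family, with 148, 239, 201 and 197 CPM in KO against 54.2, 74.8, 67.3 and 58.1 CPM in WT (log2 fold change 1.63, SE 0.18, edgeR adjusted p = 0.000476). Its lowest KO library, replicate 1, was still far above the highest WT library. The noncoding locus 1700101I11Rik overlaps 28.3% of its merged exons on the opposite strand. No label says if counting used the strand. Gabarap, the family's namesake, had 199, 202, 162 and 143 CPM in KO against 83.5, 101, 66.5 and 113 CPM in WT (0.96, SE 0.19, adjusted p = 0.00497). Here KO replicates 1 and 2 were the high ones, and the WT libraries spread from replicate 3 at the bottom to replicate 4 at the top without reaching KO. Gabarapl2, the third GABARAP gene, had 52.1, 58.0, 53.3 and 56.75 CPM in KO against 21.5, 31.1, 36.9 and 24.95 CPM in WT (0.94, SE 0.18, adjusted p = 0.0036).

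The LC3 branch moved the same way. Map1lc3b, the LC3 gene most often followed as a marker of autophagosomes, had 108, 182, 125 and 112.5 CPM in KO against 68.9, 69.3, 63.9 and 81.0 CPM in WT (log2 fold change 0.90, SE 0.19, edgeR adjusted p = 0.00537). KO replicate 2 stood above the other KO libraries, and the WT libraries lay close together. Map1lc3a was the lowest member of the family, with 2.81, 4.99, 5.70 and 4.77 CPM in KO against 2.17, 2.355, 1.58 and 1.065 CPM in WT (1.35, SE 0.34, adjusted p = 0.0125), and rests on 30 to 69 counts in each WT library. For all 5 genes every KO library lay above every WT library, as it did for 21.1% of all rows. The 5 calls held with each library left out in turn (largest adjusted p = 0.0448, for Map1lc3a), and Map1lc3a lost its call against WT replicates 2 and 3 alone (adjusted p = 0.0578). Map1lc3b and Gabarapl2 have close copies elsewhere in the annotation, 5 and 6 pseudogenes of at least 90% identity over 200 or more bases, none of which is among the rows of the count table, so how their shared reads were counted adds to the uncertainty of both levels.

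**Figure D2:**
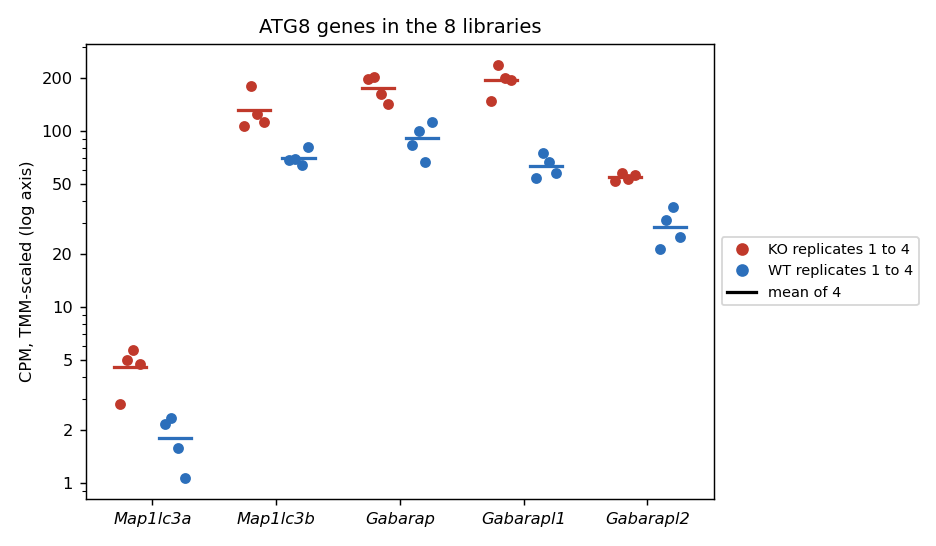
CPM of the 5 ATG8 genes on a log axis, with 1 point per library (KO in red on the left, WT in blue on the right, replicates 1 to 4 from left to right) and a bar at the mean of 4. The KO points lie above the WT points for every gene, most widely for Gabarapl1 (148 to 239 CPM in KO, 54.2 to 74.8 CPM in WT).

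Levels can be compared between genes only per length, here as CPM per kilobase of the longest protein-coding transcript in GENCODE M21. On that scale Gabarap stood at 131 ± 21.4 in KO and 67.4 ± 15.1 in WT, and Gabarapl1 at 108 ± 20.5 in KO and 34.95 ± 5.10 in WT (SD, n = 4 each). Map1lc3b followed with 50.01 ± 13.01 in KO and 26.9 ± 2.76 in WT, then Gabarapl2 with 32.8 ± 1.67 in KO and 17.1 ± 4.05 in WT, and Map1lc3a was last with 4.11 ± 1.11 in KO and 1.61 ± 0.53 in WT. Of the ATG8 message summed on this scale, Gabarapl1 made up 26.8% to 36.7% in the KO libraries and 19.7% to 27.6% in the WT libraries, and the ranges touch only through KO replicate 1 and WT replicate 3. Gabarap made up 35.9% to 48.6% in KO and 36.8% to 51.6% in WT. With the length of all merged exons in place of the transcript, Gabarapl1 and Gabarap were level in KO (97.5 and 95.8 CPM per kilobase) and Map1lc3b stood at 17.5 in KO and 9.42 in WT, so its place in the order depends on the length used.

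Because TEAD proteins were the target of the knockout and the ATG8 genes moved together, the promoters were searched for the recognition core of TEAD and for the cores of 5 other factor families, on both strands. RefSeq promoters (GRCm38.p6, 250 bases before to 50 after the start site) were at hand for 33 of the 40 members, in 37 entries. A member counted as matched if any of its entries held the core, while the share of all promoters was taken per entry. These shares are therefore not in like units, and a gene with more entries has more chances of a match. The TEAD core GGAATG was found in 4 of the 33 genes (12.1%, with 14.7% of all 32851 promoters), and 3 of the 4 are ATG8 genes, namely Gabarap, Gabarapl2 and Map1lc3b. The fourth is Atg3, which was not called. Gabarapl1, the ATG8 gene with the largest increase, had no match, and Map1lc3a has no promoter in the table. Below, capitals mark GGAATG or its reverse complement CATTCC. The stretches that hold the matches of the 3 ATG8 genes are shown with that of Gabarapl1 for comparison. Those of Gabarapl2 (chr8:111940453-111940602), Map1lc3b (chr8:121590188-121590337) and Gabarapl1 (chr6:129532942-129533091) run from 250 to 101 bases before the start site, and that of Gabarap (chr11:69991142-69991171) from 228 to 199 bases before it, all on the plus strand. These start sites are RefSeq's. GENCODE M21 starts Gabarap at 69991143, so in that annotation the Gabarap stretch, apart from its first base, lies within the gene.
Gabarapl2: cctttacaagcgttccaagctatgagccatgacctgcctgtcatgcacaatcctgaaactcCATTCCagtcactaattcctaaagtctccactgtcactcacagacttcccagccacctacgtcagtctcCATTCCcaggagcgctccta
Map1lc3b: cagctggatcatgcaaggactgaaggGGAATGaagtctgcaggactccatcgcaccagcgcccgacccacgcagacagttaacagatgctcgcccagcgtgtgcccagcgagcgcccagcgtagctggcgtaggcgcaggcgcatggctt
Gabarap: ctgagccttgagCATTCCctgggtgtctgc
Gabarapl1: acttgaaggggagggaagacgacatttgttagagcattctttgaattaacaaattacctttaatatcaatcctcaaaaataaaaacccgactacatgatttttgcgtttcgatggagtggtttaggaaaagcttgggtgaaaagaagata

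The palindromic core CACGTG, bound by MITF, TFEB and other basic helix-loop-helix factors, was found in 5 of the 33 genes (15.2% of genes, with 7.15% of all promoter entries). Only 1 of these, Atg14, was among the 13 genes called higher that have a promoter here, and the other 4, Atg3, Atg5, Atg7 and Bnip3, were among the 20 not called. Atg3 (chr16:45158719-45158778, plus strand, 110 to 51 bases before the start) holds 2 copies. The copy of Atg14 (chr14:47568418-47568447, minus strand) spans its RefSeq start site. GENCODE M21 starts Atg14 at 47570649 on the minus strand, so in that annotation this copy lies within the gene. The Atg7 match at 114670964 likewise lies within its gene, which starts at 114643097 on the plus strand. Capitals mark CACGTG.
Atg3: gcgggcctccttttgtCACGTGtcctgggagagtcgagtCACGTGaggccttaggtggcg
Atg14: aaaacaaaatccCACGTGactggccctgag
The NRF2 antioxidant core TGACNNNGC was found in 4 genes (12.1%, with 12.4% of all promoters). As with the TEAD core, 3 of these were called higher (Atg13, Map1lc3b and Ulk2) and 1 was not (Tax1bp1). The interferon-stimulated response element was found in 1, Nbr1 (3.03%, with 3.44%). The Tax1bp1 and Nbr1 matches lie within their genes in GENCODE M21. The AP-1 core TGACTCA and the FOXO core TGTTTAC were found in none (5.2% and 3.65% of all promoters). No match of 1 motif overlapped a match of another in these promoters. A match is a description of letters in the window and not a measured binding site.

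Cargo receptors were the second role in which most genes rose. Sqstm1, which encodes p62, a receptor that binds ubiquitin and ATG8 proteins, was the most abundant member per length (284 ± 6.76 CPM per kilobase in KO and 114 ± 28.6 in WT). It had 747, 740.1, 779 and 767 CPM in KO against 201, 384.5, 304 and 326 CPM in WT (log2 fold change 1.32, SE 0.20, edgeR adjusted p = 0.00156). The KO libraries lay close together, while WT replicate 1 lay well below the other WT libraries. Mrnip, on the opposite strand, overlaps 17.3% of the Sqstm1 exons and was itself at 1.47 to 4.93 CPM in KO and 2.02 to 3.89 CPM in WT. Calcoco1, a receptor known for autophagy of the endoplasmic reticulum and Golgi, had 42.5, 98.8, 87.0 and 80.5 CPM in KO against 18.2, 17.3, 18.4 and 16.3 CPM in WT (2.14, SE 0.24, adjusted p = 0.000531). Here the WT libraries were nearly level and KO replicate 1 was the low one, far below the others but above every WT library. Nbr1, a p62 relative, had 89.8, 125, 143 and 139 CPM in KO against 80.1, 81.1, 77.0 and 83.0 CPM in WT (0.63, SE 0.16, adjusted p = 0.0124), and KO replicate 1 lay just above the highest WT library.

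The mitophagy receptors Bnip3l and Bnip3, paralogs that sit in the outer mitochondrial membrane and are known hypoxia-inducible genes, gave different values. Bnip3l rose, with 88.75, 118, 120 and 112 CPM in KO against 56.5, 55.1, 63.4 and 76.2 CPM in WT (log2 fold change 0.80, SE 0.16, edgeR adjusted p = 0.00437). Bnip3 was not called, at 35.1, 26.7, 31.3 and 31.3 CPM in KO and 55.9, 32.3, 29.4 and 85.6 CPM in WT (-0.71, SE 0.31, adjusted p = 0.0934). Its WT libraries fell into pairs, replicates 1 and 4 high and replicates 2 and 3 at the KO level. Without WT replicate 3 Bnip3 was called lower (-0.91, adjusted p = 0.0309). With any other library left out it was not called (adjusted p up to 0.262). Bnip3 has 5 close copies and Bnip3l 1 close copy in the annotation, none among the rows of the count table. Tax1bp1, a ubiquitin-binding receptor, was also not called (237 ± 12.6 CPM in KO, 221 ± 29.1 CPM in WT, 0.10, SE 0.14, adjusted p = 0.589). Optn, the seventh receptor gene, was not tested, since it had 3 counts in KO replicate 2 and 0 in the other 7 libraries, where 3 counts correspond to 0.0873 to 0.11 CPM.

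**Figure D3:**
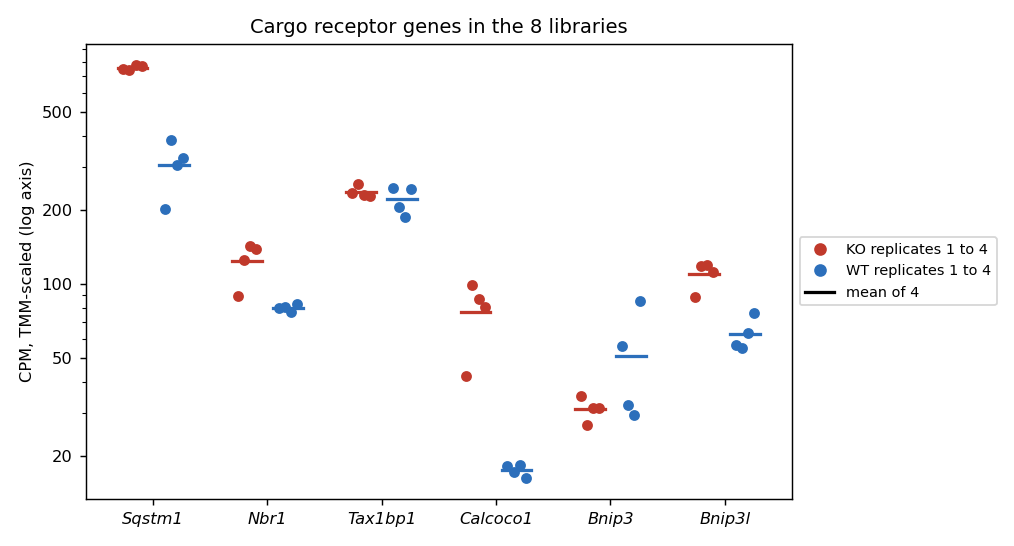
CPM of the 6 tested cargo receptor genes on a log axis, with 1 point per library (KO in red on the left, WT in blue on the right, replicates 1 to 4 from left to right) and a bar at the mean of 4. KO and WT do not overlap for Sqstm1, Nbr1, Calcoco1 and Bnip3l, and do for Tax1bp1 and Bnip3, whose WT points form a high and a low pair.

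Within the ULK1 complex, which starts autophagosome formation, the kinase Ulk2 and the regulatory subunit Atg13 rose. Atg13 had 48.1, 71.7, 71.8 and 72.9 CPM in KO against 31.6, 30.1, 35.7 and 34.0 CPM in WT (log2 fold change 1.01, SE 0.16, edgeR adjusted p = 0.00206). Ulk2 had 33.2, 49.9, 58.4 and 56.9 CPM in KO against 31.98, 30.1, 28.6 and 31.5 CPM in WT (0.70, SE 0.18, adjusted p = 0.014). For both genes KO replicate 1 was the lowest KO library, and for Ulk2 it lay just above WT replicate 1. The paralogous kinase gene Ulk1 was not called (54.2 ± 4.75 CPM in KO and 59.5 ± 16.0 CPM in WT, -0.14, SE 0.19, adjusted p = 0.595), and neither was Rb1cc1, the FIP200 scaffold (71.6 ± 13.1 CPM in KO and 71.0 ± 17.6 CPM in WT, 0.01, SE 0.21, adjusted p = 0.968). Atg101, which stabilises ATG13, averaged 25.7 ± 4.76 CPM in KO and 19.97 ± 6.25 CPM in WT (0.36, SE 0.24, adjusted p = 0.244). The difference between Ulk2 and Ulk1 was not tested.

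Of the phosphatidylinositol 3-kinase genes, the catalytic subunit Pik3c3 (VPS34) and the autophagy-specific subunit Atg14 rose. Pik3c3 had 57.6, 62.0, 59.7 and 56.4 CPM in KO against 43.9, 40.4, 38.2 and 40.7 CPM in WT (log2 fold change 0.53, SE 0.12, edgeR adjusted p = 0.00739), a small difference between tightly grouped libraries. Atg14 had 8.56, 19.1, 14.9 and 14.9 CPM in KO against 6.44, 8.36, 9.602 and 8.24 CPM in WT (0.81, SE 0.25, adjusted p = 0.0278), and KO replicate 1 fell inside the WT range. The Atg14 call was lost without KO replicate 2, 3 or 4 (adjusted p = 0.0856, 0.0662 and 0.0622) and without WT replicate 1, 2 or 4 (0.0718, 0.0522 and 0.062). Becn1, the beclin subunit shared by both complexes, was not called (97.2 ± 3.89 CPM in KO and 91.3 ± 5.95 CPM in WT, adjusted p = 0.554), with 43.9% of its exons overlapped on the opposite strand by Cntd1, itself at no more than 0.236 CPM in any library. Pik3r4, the regulatory kinase VPS15, did not pass either (32.7 ± 3.33 CPM in KO and 27.5 ± 2.53 CPM in WT, adjusted p = 0.171). Ambra1, a beclin-binding adaptor, had all KO libraries above all WT libraries (69.3 ± 5.27 CPM in KO and 57.4 ± 1.78 CPM in WT) without being called (0.27, SE 0.12, adjusted p = 0.0955). It was called without KO replicate 1 (adjusted p = 0.0427) but not with any other library left out (adjusted p up to 0.22). Uvrag, the subunit of the endosomal complex, had 54.7, 63.6, 33.8 and 35.0 CPM in KO against 51.8, 53.25, 50.3 and 52.4 CPM in WT (-0.15, adjusted p = 0.588), so KO replicates 1 and 2 lay above all WT libraries and KO replicates 3 and 4 below them.

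Among the genes that supply membrane, Atg9b had the largest increase of all 39 members. ATG9 proteins are lipid scramblases carried on small vesicles, and Atg9b is the paralog with the narrower tissue range. It had 161, 150.1, 336 and 366 CPM in KO against 26.2, 41.0, 42.25 and 22.9 CPM in WT (log2 fold change 2.94, SE 0.36, edgeR adjusted p = 0.000677). KO replicates 3 and 4 stood well above KO replicates 1 and 2, and all 4 were far above WT. Atg9b (GRCm38 chromosome 5, 24384181 to 24392143, minus strand) overlaps Nos3 on the opposite strand by 294 exonic bases, or 7.45% of its merged exons. Nos3 itself was at 0.70 to 2.23 CPM in KO and 0.178 to 0.846 CPM in WT. The main paralog Atg9a was at 70.05, 79.0, 67.6 and 64.2 CPM in KO against 103, 82.4, 82.3 and 91.6 CPM in WT, all KO libraries below all WT libraries but not called (-0.36, SE 0.14, adjusted p = 0.0579). Without WT replicate 3 Atg9a was called lower (-0.41, adjusted p = 0.0444), but not with any other library left out (adjusted p up to 0.16). The transcript locus Gm29253, on the same strand, overlaps 31.8% of the Atg9a exons, and Ankzf1, on the opposite strand, overlaps 0.798% of them, so the Atg9a level is uncertain. Per length, Atg9b exceeded Atg9a in KO (64.9 ± 29.1 and 16.6 ± 1.51 CPM per kilobase) and stood below it in WT (8.48 ± 2.56 and 21.3 ± 2.32).

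Another pair of paralogs encodes the ATG2 proteins, which move lipids into the growing membrane. Atg2a rose, with 65.0, 83.5, 90.7 and 92.7 CPM in KO against 49.1, 44.1, 56.1 and 39.3 CPM in WT (log2 fold change 0.82, SE 0.17, edgeR adjusted p = 0.00515). Atg2b averaged 44.8 ± 3.16 CPM in KO and 53.3 ± 8.70 CPM in WT and was not called (-0.25, SE 0.15, adjusted p = 0.204). Of the WIPI genes, whose products read the lipid mark, Wipi1 averaged 29.0 ± 2.52 CPM in KO and 35.6 ± 3.82 CPM in WT (-0.30, adjusted p = 0.108), and Wipi2 averaged 171 ± 8.21 CPM in KO and 152 ± 21.4 CPM in WT (0.17, adjusted p = 0.352). Neither passed.

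Conjugation genes, which charge and attach the ATG8 proteins, showed 1 increase among 7. Atg12, the ubiquitin-like partner of ATG5, had 65.6, 89.0, 84.1 and 82.85 CPM in KO against 45.4, 59.9, 46.2 and 53.2 CPM in WT (log2 fold change 0.65, SE 0.15, edgeR adjusted p = 0.00895), again with KO replicate 1 lowest in KO and no overlap. Its partner Atg5 averaged 35.8 ± 6.11 CPM in KO and 43.2 ± 1.79 CPM in WT and was not called (-0.27, SE 0.15, adjusted p = 0.16). It was called lower without KO replicate 1 (-0.41, adjusted p = 0.0168) but not with any other library left out (adjusted p up to 0.354). The third part of that complex, Atg16l1, had every KO library below every WT library, as 19.6% of all rows did, at 34.8 ± 0.975 CPM in KO and 43.8 ± 5.05 CPM in WT (-0.33, SE 0.13, adjusted p = 0.0624). Atg16l1 was called lower without WT replicate 4 (-0.42, adjusted p = 0.0436) but not with any other library left out (adjusted p up to 0.155). Its paralog Atg16l2 was split in WT, with 5.78 and 5.15 CPM in replicates 1 and 4 and 14.2 and 16.6 CPM in replicates 2 and 3, beside 16.0 to 18.7 CPM in KO. It was not called (0.72, SE 0.36, adjusted p = 0.131). Without WT replicate 3 it was called higher (1.02, adjusted p = 0.0436), but not with any other library left out (adjusted p up to 0.281). The activating enzyme gene Atg7 averaged 59.3 ± 8.45 CPM in KO and 46.8 ± 6.12 CPM in WT (0.34, adjusted p = 0.101). Of the conjugating enzyme genes, Atg3 averaged 39.4 ± 2.30 CPM in KO and 43.4 ± 7.78 CPM in WT (-0.14, adjusted p = 0.469), and Atg10 averaged 3.98 ± 0.61 CPM in KO and 2.98 ± 0.87 CPM in WT (0.42, adjusted p = 0.267).

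The ATG4 proteases, which trim new ATG8 proteins and release them from the membrane, had 1 increase among 4. Atg4a, on chromosome X, had 23.0, 23.2, 26.0 and 22.9 CPM in KO against 14.2, 19.2, 15.8 and 17.5 CPM in WT (log2 fold change 0.51, SE 0.15, edgeR adjusted p = 0.0211). That call was lost without KO replicate 3 (adjusted p = 0.0689), without WT replicate 1 (0.0556) and with the replicate number as a block (0.0588). A near-identical copy, Atg4a-ps, matches it over 2115 bases at 99.3% and reached at most 1.28 CPM in KO and 1.45 CPM in WT, so the split of reads between the 2 is uncertain. Atg4b, Atg4c and Atg4d were not called and had log2 fold changes of -0.14, -0.06 and 0.05 (SE 0.17, 0.19 and 0.23). Kri1, on the opposite strand, overlaps 19.3% of the Atg4d exons and was at 35.4 to 44.9 CPM in KO and 31.2 to 54.5 CPM in WT, so the Atg4d level is uncertain.

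**Figure D4:**
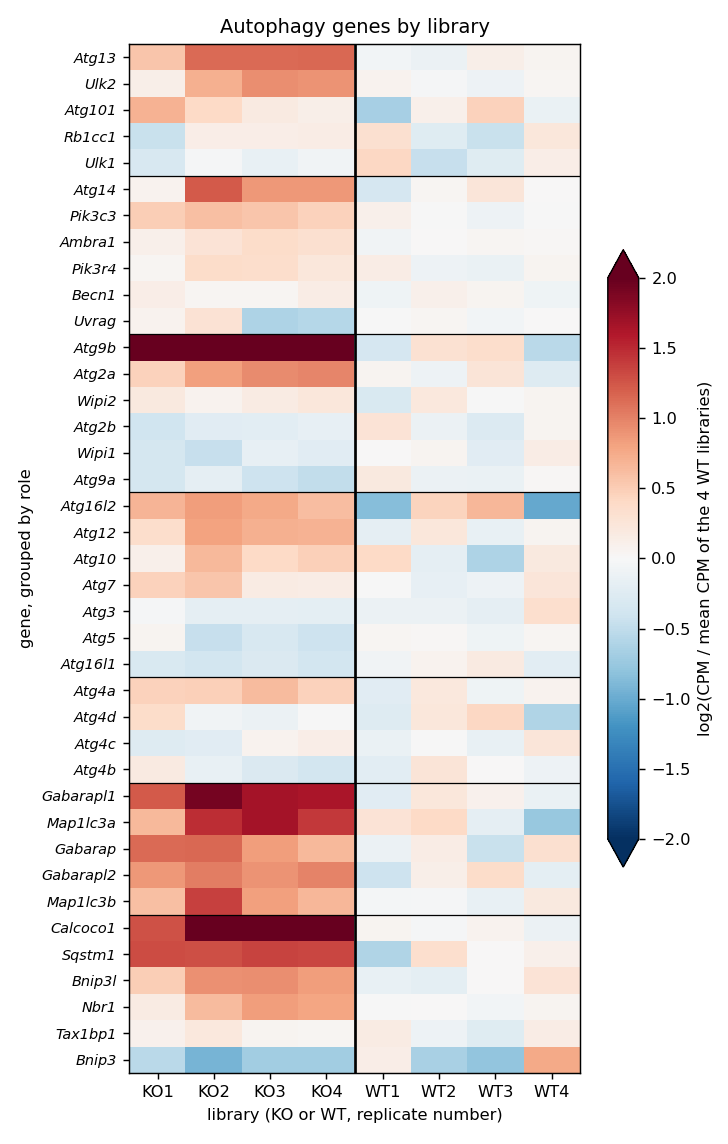
Each cell gives the log2 ratio of a gene's CPM in 1 library to its mean CPM in the 4 WT libraries, for the 39 tested members grouped by role, with the colour scale ending at -2 and 2. The 4 KO columns stand left of the thick line and the 4 WT columns right of it. The ATG8 block and most receptors are red in all 4 KO columns, KO1 is the palest KO column for Calcoco1, Atg13, Ulk2 and Nbr1, and WT1 with WT4 differ from WT2 with WT3 for Atg16l2 and Bnip3.

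Libraries of 1 genotype differed among themselves. KO replicate 1 was the lowest KO library for 12 of the 17 called members and the highest for none, and it had 14345 rows above 0. KO replicates 2 to 4 had 17759 to 17948 such rows and the WT libraries 14566 to 15430, so by this measure KO replicate 1 was near WT and the other 3 KO libraries stood apart. The part of this difference in the results was not tested. Leaving it out gave 18 members called higher and 1 called lower, with 24.7% and 24.6% of all rows called. In WT, replicates 1 and 4 and replicates 2 and 3 were close to each other over the whole table (chi-square per degree of freedom 34.7 and 35.0) and far across (201 to 242). Replicates 1 and 4 lay both above or both below the other 2 for 22 of the 39 tested members (56.4%, with 68.2% of all rows). In KO, replicates 1 and 2 were split in this way from replicates 3 and 4 for 17 members (43.6%, with 60.3% of all rows). Over the whole table, though, the closest KO libraries were replicates 2 and 4 (66.4), with 118 for replicates 1 and 2 and 116 for replicates 3 and 4. KO replicate 1 was far from KO replicates 3 and 4 (257 and 205), and KO replicates 2 and 3 gave 145. If each WT pair were 1 unit, the WT group would hold 2. With the counts of each pair summed, chosen once the values were known, 11 members were called higher and none lower, beside 11.5% and 10.3% of all rows. Those 11 included all 5 ATG8 genes and Sqstm1, Calcoco1, Bnip3l, Atg9b, Atg2a and Atg13. The calls of Ulk2, Pik3c3, Atg14, Atg12, Atg4a and Nbr1 were lost (adjusted p between 0.0531 and 0.112).

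Genes around the core machinery were counted in 4 further lists, against the same background of all rows. Of 23 tested genes with other autophagy roles, 5 were higher (21.7%, close to the 20.9% of all rows) and 2 lower (8.7%, with 20.6% of all rows), and the median log2 fold change was 0.01. Pink1, the kinase that flags damaged mitochondria, averaged 61.3 ± 16.9 CPM in KO and 13.95 ± 7.001 CPM in WT (log2 fold change 2.14, edgeR adjusted p = 0.00224). Ccpg1, a receptor for autophagy of the endoplasmic reticulum, averaged 43.8 ± 18.03 CPM in KO and 12.2 ± 1.79 CPM in WT (1.85, adjusted p = 0.00273). Tecpr1, which links autophagosomes to lysosomes, averaged 83.1 ± 12.9 CPM in KO and 23.6 ± 11.7 CPM in WT (1.82, adjusted p = 0.00328). Bcl2l13, a mitophagy receptor, was lower at 70.6 ± 13.6 CPM in KO and 111 ± 15.5 CPM in WT (-0.65, adjusted p = 0.0136). In the list for fusion with the lysosome 4 of 17 were higher (23.5%, near the 20.9% of all rows) and none lower, with a median of 0.22. The 4 were the SNARE gene Vamp8 (1.44), the Rab7 effector Rilp (1.95), the tethering subunit Vps11 (0.79) and the adaptor Plekhm1 (0.40), with adjusted p between 0.00252 and 0.0456.

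The control of autophagy by mTORC1 and AMPK showed 2 increases and 2 decreases among 31 tested genes (6.45% each, below both background shares) and a median of -0.03. Lamtor4, a Ragulator subunit, averaged 27.1 ± 5.18 CPM in KO and 11.9 ± 6.38 CPM in WT (log2 fold change 1.19, edgeR adjusted p = 0.0263), and Flcn, the folliculin gene, averaged 49.75 ± 10.3 CPM in KO and 33.4 ± 7.41 CPM in WT (0.57, adjusted p = 0.0443). The AMPK subunit genes Prkab1 and Prkaa1 were lower, with 50.3 ± 13.6 and 111 ± 5.17 CPM in KO and 93.8 ± 35.5 and 165 ± 48.3 CPM in WT (-0.90 and -0.58, adjusted p = 0.0318 and 0.0435). Both were split in WT, with Prkab1 at 122.5, 69.1, 57.7 and 125.9 CPM and Prkaa1 at 211, 126.5, 120.5 and 202.7 CPM. Prkab1 overlapped the KO range in WT replicate 3, while Prkaa1 did not overlap. Of 11 tested transcription factors known to act on autophagy genes, 4 were higher (36.4%) and 1 lower (9.09%). Of all rows, 20.9% were higher and 20.6% lower, and the median of the 11 was 0.18. Mitf, a relative of TFEB, averaged 38.98 ± 12.9 CPM in KO and 13.55 ± 3.32 CPM in WT (1.52, adjusted p = 0.00333), and Foxo3 averaged 44.9 ± 5.62 CPM in KO and 29.9 ± 3.99 CPM in WT (0.58, adjusted p = 0.0144). Ddit3 was also higher (1.00, adjusted p = 0.0439), though its KO and WT libraries overlapped. Hif1a was lower, at 155 ± 6.86 CPM in KO and 261 ± 75.4 CPM in WT (-0.75, adjusted p = 0.0159). Tfeb (22.8 ± 3.20 CPM in KO and 20.1 ± 5.33 CPM in WT, adjusted p = 0.49) and Tfe3 (94.0 ± 7.18 CPM in KO and 112 ± 16.8 CPM in WT, adjusted p = 0.173), named after their values were seen, were not called. Foxo4, the fifth call of this list and likewise named after its value was seen, was higher by 1.30 (adjusted p = 0.0496). Its KO and WT libraries also overlapped.

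**Figure D5:**
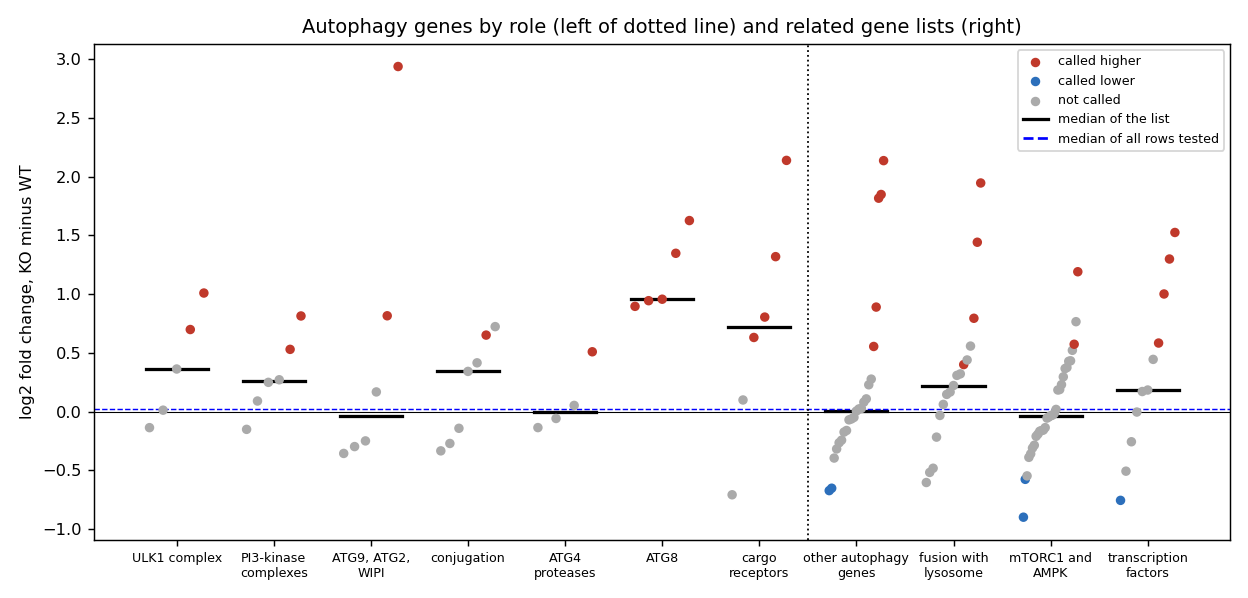
Log2 fold change, KO minus WT, of every tested gene in the 7 roles of the autophagy genes (left of the dotted line) and in 4 related lists (right of it). Red is called higher, blue called lower and grey not called at an adjusted p under 0.05, black bars are medians and the dashed line is the median of all 13265 rows tested. The bars of the ATG8 genes (0.96) and receptors (0.72) lie above those of the other roles and lists, which run from -0.04 to 0.36.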

How the data were processed

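RNA was sequenced from 8 libraries of CT26 cells, 4 KO and 4 WT. The authors deposited raw counts per gene, per the file headers, and the submitters' processing notes name HISAT2, StringTie and the build GRCm38. No label or header states the treatment of shared reads or of strand. The table has 26642 rows, 22036 of them annotated, and total counts of 29679405 to 32774905 per library.

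Counts were tested with edgeR 4.0.16 in R 4.3.3 (quasi-likelihood test, TMM factors, filterByExpr with a minimum count of 10 and a minimum total of 15), with Benjamini-Hochberg adjustment over the 13265 rows tested and a threshold of 0.05. The script was tested on simulated data. SE is the fold change divided by the square root of F. Alternatives were other scalings and filters, DESeq2 1.42.0, limma-voom (limma 3.58.1), a replicate block, a threshold of 0.01 and leaving out each library. Floors of 3 counts cover counting error only, while SE and SD include the spread between libraries. An exact two-sided permutation test of 4 against 4 libraries has 70 assignments and a smallest p of 0.0286. Coordinates, lengths and overlaps come from GENCODE M21 (GRCm38), and promoters from RefSeq (GRCm38.p6). The members, gene lists and motifs were chosen with earlier results of these data known. All members may be named, with every library given for those called, and from each further list up to 4 called genes with the smallest p. CPM divides counts by the TMM-scaled library size. Lists of initiation, lipid kinase, membrane, conjugation, ATG4, ATG8, receptor, other autophagy, fusion, mTORC1 and AMPK, transcription factor and cell type marker genes were used.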

Additional observations from a re-analysis of the deposited data

Results flagged for a closer look

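Among 78 groups of 4 libraries (39 members in KO and in WT), 5 held a library whose gap to the next, as a share of the group's range, was above Dixon's 95% critical value. Chance flags about 1 in 20 groups, and 3 of the 5 concern KO replicate 1. Atg13 was at 48.09 CPM in KO replicate 1, with 71.7 to 72.9 CPM in the other KO libraries. Rb1cc1 was at 51.91 CPM in KO replicate 1, with 78.0 to 78.4 CPM in the others. Atg3 was at 42.78 CPM in KO replicate 1 (37.8 to 38.5 CPM in the others) and at 55.05 CPM in WT replicate 4 (38.5 to 40.1 CPM in the others). Atg4a was at 25.97 CPM in KO replicate 3, with 22.9 to 23.2 CPM in the others.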

How the results depend on the processing

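Over 21 alternatives, 10 of the 17 called members kept their call in each (Atg13, Atg9b, Atg2a, Map1lc3b, Gabarap, Gabarapl1, Gabarapl2, Sqstm1, Calcoco1 and Bnip3l), and none of the 17 turned direction in any. The cause of the changes that follow was not tested. With the replicate number as a block, 16 members were higher (beside 18% of all rows), 4683 rows were called in all and 0 ATG4 genes were higher. The numbers share no source in the labels. Each gene's mean in its genotype was subtracted from its log2 CPM, and the remaining deviations were correlated between KO and WT libraries. These deviations correlated at -0.0317 to -0.00276 between same-numbered libraries, and no KO library matched its own number best. Under upper-quartile scaling, and likewise under plain library size, 4 lipid kinase genes and 2 conjugation genes were higher, and log2 fold changes of uncalled genes changed sign to 0.058 and 0.062 (Ulk1), 0.023 and 0.017 (Uvrag), 0.040 and 0.042 (Atg3), 0.030 and 0.027 (Atg4b) and 0.13 and 0.13 (Atg4c). A filter of 5 CPM in 4 libraries gave 2 conjugation genes higher and 0.025 for Atg4c, and left Map1lc3a and Atg10 untested. DESeq2 called 2 members lower, beside 23.7% of all rows. At an adjusted p under 0.01, 2736 rows were called, with 1 gene of the ULK1 complex, 1 lipid kinase gene and 0 ATG4 genes higher. Leaving out single libraries gave 0 to 2 members lower, beside 13.2% to 24.6% of all rows. It also gave 1 to 3 lipid kinase, 1 to 2 conjugation and 0 to 1 ATG4 genes higher. Log2 fold changes then ran from -0.26 to 0.025 for Ulk1, -0.13 to 0.13 for Rb1cc1, -0.12 to 0.011 for Atg4c and -0.13 to 0.20 for Atg4d.

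These 3 alternatives were chosen after seeing the data. With the WT pairs summed, 11 members were higher (beside 11.5% of all rows) and 3134 rows were called. In that fit 1 gene of the ULK1 complex and 0 lipid kinase, conjugation and ATG4 genes were higher, with Rb1cc1 at -0.026. Against WT replicates 1 and 4 alone, 4 members were lower (beside 21.9% of all rows) and 2 conjugation genes higher. Rb1cc1 stood at -0.28, Atg4b at 0.0042 and Tax1bp1 at -0.068. Against WT replicates 2 and 3 alone, 11 members were higher and 1 lower, beside 12.5% and 9.02% of all rows, with 3085 rows called. Among them were 1 gene of the ULK1 complex, 1 lipid kinase gene and 0 conjugation and ATG4 genes called higher. Ulk1 stood at 0.19, Becn1 at -0.0035 and Atg4d at -0.29. Depth limits Optn and, at 30 to 69 counts in WT, Map1lc3a.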
